A study of Mus musculus with 11 samples.

Results

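The SLC25 genes encode the mitochondrial carriers, a family of membrane proteins that move nucleotides, phosphate, organic acids, amino acids, cofactors and iron across the inner mitochondrial membrane. Genes were taken as members when their Ensembl identifier mapped to a mouse symbol beginning with Slc25a and a number and their raw counts summed to 50 or more over all libraries. Of 15113 genes in the count table, 38 bore such a symbol and all 38 reached the minimum. The family, its ranks and its shares below mean these 38 members. Genes of the same fold under other symbols are reported apart from them. The member with the fewest counts was Slc25a42 with 93, followed by Slc25a43 with 124.

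C2C12, an established mouse line of muscle precursor cells that form myotubes when serum is withdrawn, was profiled by QuantSeq, which counts a transcript by tags near its 3′ end. The 6 control libraries (shRandom) carried a random short hairpin RNA, and the 5 knockdown libraries (shDRP1) carried a hairpin directed at Drp1, which constricts and divides mitochondria as a GTPase of the dynamin family. All libraries were labelled as early-stage myotubes at passages 2 to 5, and no other treatment is given for either group. Whether the libraries came from separate cultures or infections is not stated, so p-values reflect only how far these libraries vary, and that variation may be technical. Levels are counts per 1000000 of the library's effective total (CPM), and since each transcript yields tags from its end only, CPM values of different genes are compared without dividing by length.

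Total counts ran from 12277622 to 23082617 per library. Dnm1l, which encodes Drp1, fell to 23.7% of its control mean (log2 fold change -2.07; edgeR, adjusted p = 2.7e-10), and the groups did not overlap. The shDRP1 libraries held little RNA of the 8 chosen markers of differentiated skeletal muscle. All 8 markers of differentiated skeletal muscle fell, and their summed level was 10512 to 11717 CPM in shRandom and 139 to 199.8 CPM in shDRP1 libraries. All 3 measured markers of smooth muscle and myofibroblasts rose (summed level 2609.9 to 3152 against 8129.8 to 9907 CPM), as did 3 of 4 measured fibroblast markers (1452 to 1872 against 4278 to 6675 CPM). Of other cell types, 3 measured adipocyte markers summed to 15.6 to 19.0 CPM in shRandom and 10.8 to 15.2 CPM in shDRP1 libraries (Pparg rose and Cebpa fell; Fabp4, too low to be tested, had means of 0.0528 and 0.762 CPM without overlap), 2 osteoblast markers to 34.8 to 44.5 and 22.8 to 29.3 CPM (Runx2 fell; Bglap, too low to be tested, had means of 0.109 and 0.326 CPM), 2 neural and glial markers to 19.9 to 27.6 and 14 to 17.5 CPM (Tubb3 fell, S100b rose) and Cd68 of macrophages to 0.636 to 1.08 and 0.309 to 0.876 CPM. Myh11, Thy1, Adipoq, Plin1, Sp7, Alpl, Ptprc, Adgre1, Hbb-bs, Rbfox3, Gfap and the endothelial markers Pecam1, Cdh5 and Kdr were not analysed here. In bulk RNA, fewer cells of a type and less RNA per cell cannot be told apart, and the part of these marker shifts in the carrier results was not tested.

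Carriers of this family share a fold of repeated helix pairs around a central substrate site that opens to one side of the membrane at a time. Most are made in the cytosol without a cleaved presequence and reach the inner membrane through the TIM22 insertion complex. They link the oxidation of fuels in the matrix to the cytosol: the ADP/ATP carrier exports the ATP that oxidation yields, the aspartate/glutamate and oxoglutarate carriers bring in reducing equivalents, the citrate carrier sends out acetyl units for lipid synthesis, and the acylcarnitine carrier admits fatty acids. Several members bind calcium on the side facing the intermembrane space, the aspartate/glutamate carriers and the ATP-Mg/phosphate carriers among them.

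Carriers moved in both directions after Drp1 knockdown. Of the 38 members, 37 passed the filter on low counts and were tested: 15 were higher, 8 were lower and 14 were not past the threshold, an adjusted p of 0.05 (edgeR quasi-likelihood test, Benjamini-Hochberg adjustment over 13025 genes). The share of tested members that passed, 62.2%, stood beside 67.1% of all genes tested. By direction, 40.5% of members were higher against 33.9% of all genes, and 21.6% were lower against 33.3% of all genes. Changes of at least 2-fold were found in 5 higher and 5 lower members, 27.0% of those tested against 24.9% of all genes (11.2% higher and 13.7% lower). Slc25a13 and Slc25a22, among these higher members, passed the filter on low counts only through the shDRP1 libraries, where they were high. The groups did not overlap for 17 members (45.9%) and for 48.9% of all genes. The median log2 fold change was 0.15 over the members and 0.03 over all genes, and the median size without sign was 0.35 and 0.47. The share of members that changed was therefore near that of all genes, and the family as a whole did not stand apart by these counts. The calls of Slc25a11, Slc25a12, Slc25a14, Slc25a16 and Slc25a20 were lost under at least 1 other setting, whereas the other 18 held in each alternative that tested them.

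**Figure D1:**
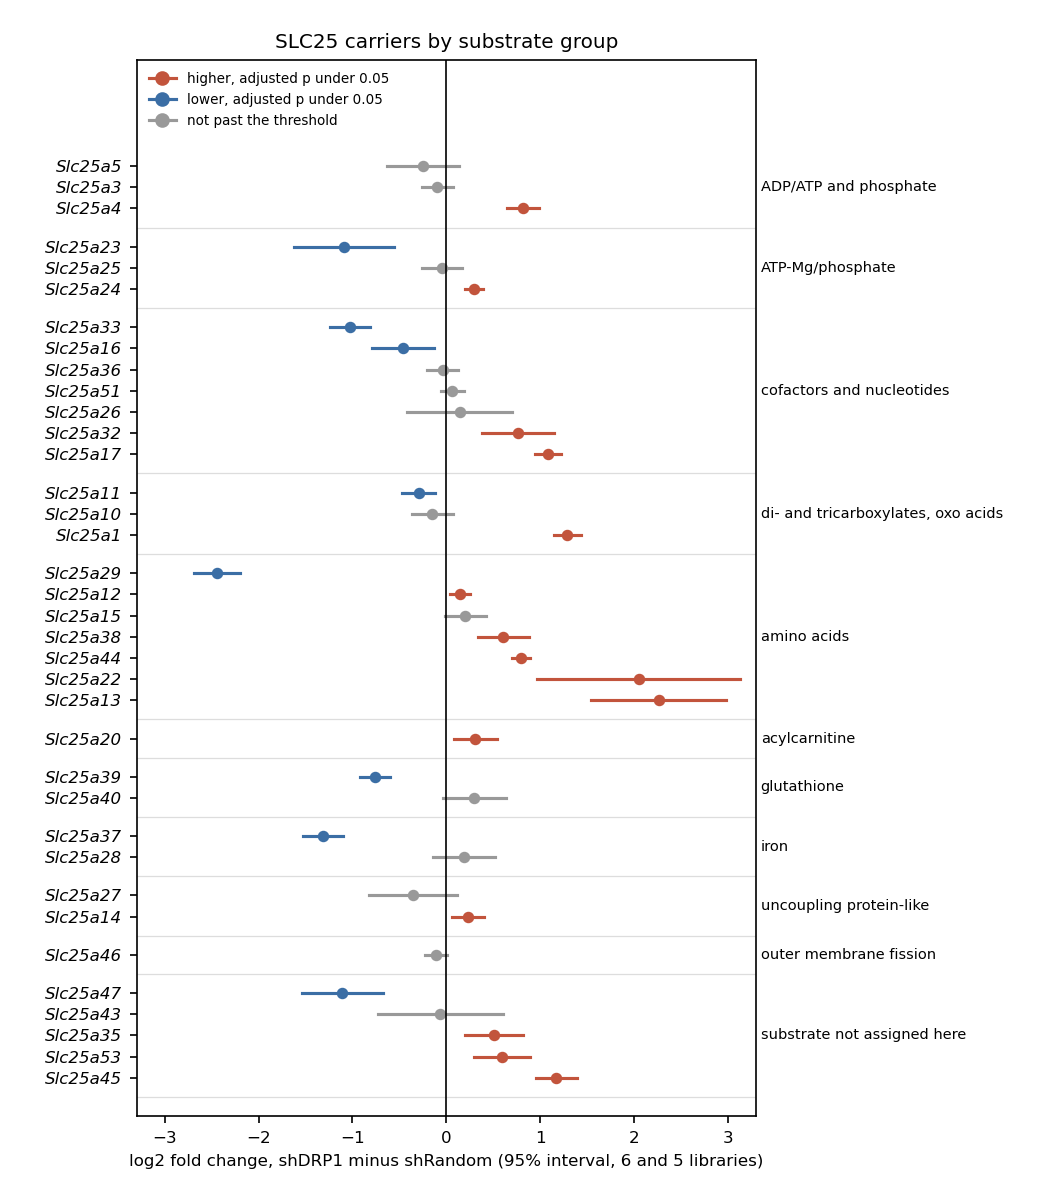
Log2 fold change of the tested carriers that are reported by name, shDRP1 minus shRandom, ordered by substrate group; points are edgeR estimates and bars are 95% intervals from the standard error, with 6 and 5 libraries. Changes run from -2.44 for Slc25a29 to 2.26 for Slc25a13, and 5 of the 11 substrate groups hold both rising and falling members.

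The members took 0.252% ± 0.0168 (SD, n = 6) of all counts in shRandom and 0.300% ± 0.0251 (SD, n = 5) in shDRP1 libraries. Library values overlapped, at 0.231% to 0.282% and 0.267% to 0.329%. A pair of members, the phosphate carrier Slc25a3 and the ADP/ATP carrier Slc25a4, held 48.6% ± 2.80 (SD, n = 6) and 56.5% ± 2.03 (SD, n = 5) of the family's counts. They exchanged the first rank among the members: Slc25a3 was the most abundant member on average in shRandom libraries and Slc25a4 in shDRP1 libraries. Mtch1, of the same fold under another symbol, had a shRandom mean of 742 CPM, above the 723 CPM of Slc25a3. Slc25a4 alone went from 20.9% ± 1.59 (SD, n = 6) to 33.1% ± 1.90 (SD, n = 5) of the family's counts, with no overlap. These shares are descriptions with no test.

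For the carriers that the comparisons below turn on, the 250 bases before the annotated start are shown for the citrate carrier gene Slc25a1, the aspartate/glutamate pair Slc25a12 and Slc25a13, whose products carry the same substrates but whose transcripts shifted by different amounts, and the ATP-Mg/phosphate carrier gene Slc25a24, whose window holds a myogenic E-box. The sequences are from RefSeq on GRCm38.p6 and are written 5′ to 3′ on the strand of the gene: chr16:17928220-17928469 on the minus strand for Slc25a1, chr2:71367756-71368005 on the minus strand for Slc25a12, chr6:6217174-6217423 on the minus strand for Slc25a13 and chr3:109122899-109123148 on the plus strand for Slc25a24. Capitals mark a match to any of the 6 motifs searched, and a window without capitals has none.
Slc25a1: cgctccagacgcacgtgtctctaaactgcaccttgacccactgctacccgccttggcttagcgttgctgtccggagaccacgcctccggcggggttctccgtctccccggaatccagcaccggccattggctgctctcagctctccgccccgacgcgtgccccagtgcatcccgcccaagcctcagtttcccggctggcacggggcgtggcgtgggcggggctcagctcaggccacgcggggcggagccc
Slc25a12: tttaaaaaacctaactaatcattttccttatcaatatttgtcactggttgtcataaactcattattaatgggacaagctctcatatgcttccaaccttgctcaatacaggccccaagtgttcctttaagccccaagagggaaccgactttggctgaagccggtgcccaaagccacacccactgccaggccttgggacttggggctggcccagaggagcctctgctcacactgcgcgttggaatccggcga
Slc25a13: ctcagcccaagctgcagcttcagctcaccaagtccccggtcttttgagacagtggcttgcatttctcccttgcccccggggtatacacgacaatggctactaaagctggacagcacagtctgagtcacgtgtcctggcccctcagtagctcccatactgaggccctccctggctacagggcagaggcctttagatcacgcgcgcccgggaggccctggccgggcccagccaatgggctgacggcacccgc
Slc25a24: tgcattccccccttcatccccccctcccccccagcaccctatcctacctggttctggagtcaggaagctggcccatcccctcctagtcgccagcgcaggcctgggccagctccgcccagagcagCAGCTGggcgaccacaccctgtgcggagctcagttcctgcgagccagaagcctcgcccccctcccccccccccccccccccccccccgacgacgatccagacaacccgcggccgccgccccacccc
Promoter windows of 29 of the 38 members were matched. On both strands, the E-box CAGCTG, which MyoD and myogenin can bind, was found for 2 of the 29, Slc25a24 and Slc25a53, while 13% of all 32851 RefSeq windows of the same length held it and 14.7% of the 9724 tested genes with a window. Both of these genes rose. They are 2 of the 12 higher members with a window, and whether the motif goes with a rise was not tested. A pattern looser than the MEF2 site (CTA, any 4 bases, TAG) was found for Slc25a10 and Slc25a22 (3.20% of all windows, 3.49% of tested genes). Their middle 4 bases were GGGC and TGGG, whereas the MEF2 site has only A or T there, so neither match is a full MEF2 site. The cyclic AMP response element TGACGTCA was found for Slc25a25 and Slc25a36 (1.55% and 3.03%), and the NRF1 site (GCGCA, any base, GCGC) for Slc25a3 (3.74% and 9.47%). No window of a member held the ERR site TCAAGGTCA (0.387% of all windows, 0.278% of tested genes) or TGATGCAA (0.791% and 0.689%), which ATF4 can bind with C/EBP factors. No 2 motif matches overlapped. A match is a run of letters and not a measured site.

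Among the carriers of ADP, ATP and phosphate, 1 of 3 changed. Slc25a4 (ENSMUSG00000031633, chr8:46206797-46211284 of GRCm38) encodes ANT1, the ADP/ATP exchanger that prevails in heart and skeletal muscle. Its level was 449 to 619.7 CPM (median 542) in shRandom libraries and 969.5, 1095, 1009, 895 and 825 CPM in shDRP1 replicates 1 to 5. Every shDRP1 library lay above every shRandom library, with a log2 fold change of 0.82 (SE 0.09; edgeR, adjusted p = 1.3e-06). The rise ran opposite to the 8 muscle markers, all of which fell by at least 3.34 on the log2 scale. Slc25a5 encodes ANT2, the isoform of proliferating cells, and gave far fewer tags. It ranged over 46.1 to 89.2 CPM (median 64.8) in control libraries and stood at 54.8, 85.1, 58.8, 47.5 and 41.5 CPM in the knockdown. The ranges of Slc25a5 overlapped almost entirely, and the log2 fold change of -0.25 (SE 0.20; edgeR, adjusted p = 0.27) did not pass, with a 95% interval of -0.63 to 0.13. Without shDRP1 replicate 2, its highest knockdown library, the value was -0.44 and passed (edgeR, adjusted p = 0.037).

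Within each library the ratio of Slc25a4 to Slc25a5 shifted. It was 8.11 in shRandom and 17.1 in shDRP1 libraries as a geometric mean, a difference of 1.08 in the log2 ratio (two-sided exact permutation test over 462 splits, adjusted p = 0.0054 over 10 pairs). All 5 shDRP1 libraries lay above the shRandom range, so the 2 isoforms shifted by different amounts. Slc25a3, the phosphate carrier that supplies ATP synthase, stood at 614 to 830.1 CPM (median 729) and at 663, 689, 776, 672 and 581 CPM. Its groups overlapped and its log2 fold change was -0.10 (SE 0.08; edgeR, adjusted p = 0.32), with a 95% interval of -0.26 to 0.07. The sign of this value differed between scalings.

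**Figure D2:**
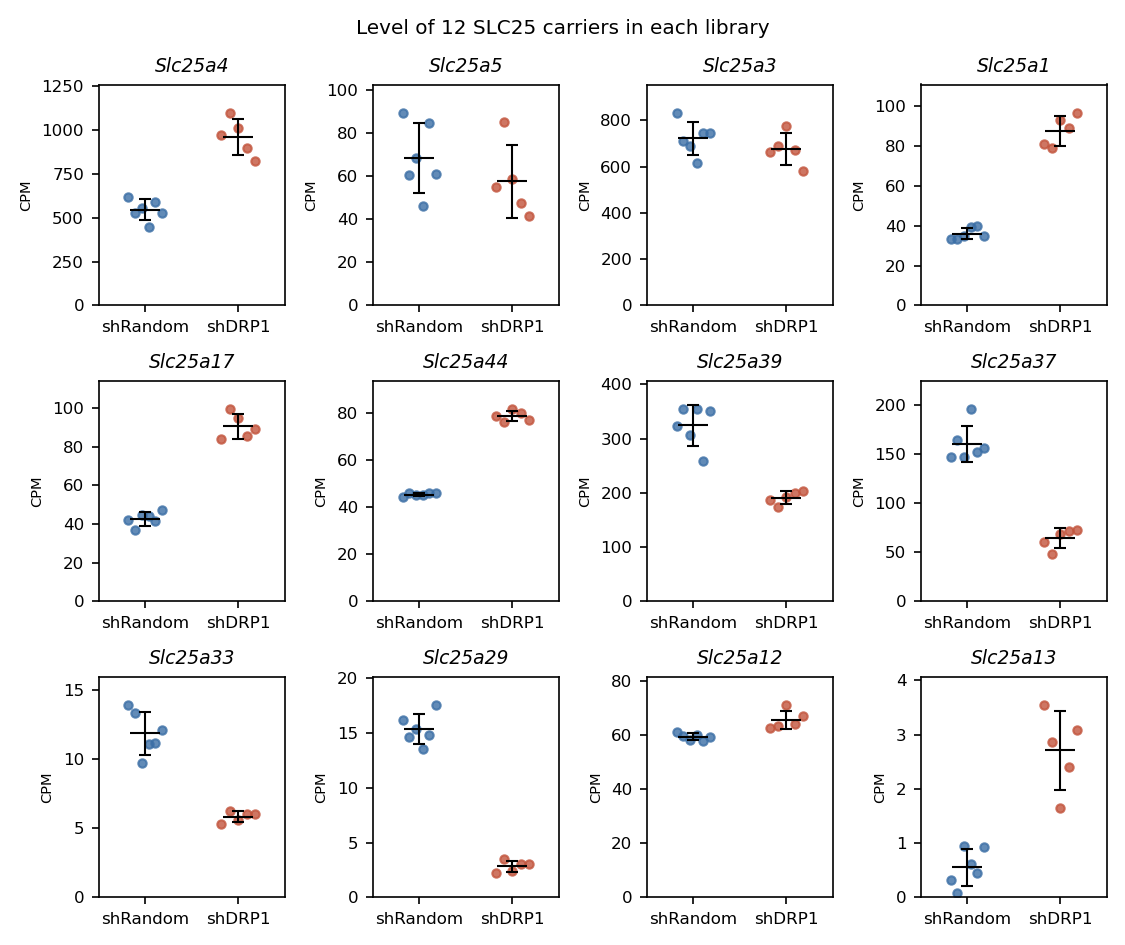
Level in CPM of 12 carriers in each shRandom (blue) and shDRP1 (red) library; each point is a library, the horizontal bar is the group mean and the error bar is 1 SD, on axes that start at 0. Slc25a4, Slc25a1, Slc25a17, Slc25a44, Slc25a12 and Slc25a13 lie higher and Slc25a39, Slc25a37, Slc25a33 and Slc25a29 lower in every shDRP1 library than in any shRandom library, while Slc25a3 and Slc25a5 overlap.

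The ATP-Mg/phosphate carriers, which load the matrix with adenine nucleotides when cytosolic calcium rises, split 3 ways. Slc25a24, the most abundant of them, ranged over 133 to 143 CPM (median 139.6) in shRandom libraries. In shDRP1 replicates 1 to 5 it stood at 162, 171, 177, 172 and 173 CPM. These ranges did not overlap, and the rise was small and even across libraries, at 0.30 (SE 0.05; edgeR, adjusted p = 7.3e-05) on the log2 scale. Slc25a25 was at 7.54 to 10.1 CPM (median 9.16) and at 9.57, 7.04, 8.50, 8.57 and 9.42 CPM. Its values overlapped and its log2 fold change was -0.04 (edgeR, adjusted p = 0.74). Slc25a23 was low, at 1.2 to 2.89 CPM (median 1.84) and 1.16, 1.31, 0.721, 0.801 and 0.698 CPM. It fell by 1.09 on the log2 scale (edgeR, adjusted p = 0.0027), although shDRP1 replicate 2 lay within the control range. An antisense transcript, Gm17168, covers the 3′ end of Slc25a23, and without a stated strand setting its reads cannot be told apart from those of the carrier. The log2 ratio of Slc25a23 to Slc25a24 differed by -1.30 (exact permutation test, adjusted p = 0.00619) and that of Slc25a24 to Slc25a25 by 0.34 (adjusted p = 0.0289); these 2 ratios share Slc25a24, and the latter did not pass when any of 6 libraries was left out (adjusted p = 0.0529 to 0.0635).

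Of the 3 organic acid carriers, the citrate carrier rose, the oxoglutarate carrier fell and the dicarboxylate carrier did not pass. Slc25a1 (ENSMUSG00000003528, chr16:17925223-17928219), the citrate carrier, ranged over 33.5 to 39.8 CPM (median 34.9) in shRandom libraries. It stood at 81.3, 79.0, 93.0, 89.1 and 96.5 CPM in shDRP1 replicates 1 to 5, so the lowest knockdown library lay far above the highest control. The mean rose 2.44-fold, with a log2 fold change of 1.29 (SE 0.07; edgeR, adjusted p = 9.4e-10), the largest rise of any member with a mean of at least 5 CPM. A pair of enzymes that act downstream of citrate export rose as well: ATP-citrate lyase Acly, which splits it to acetyl-CoA, rose from a mean of 54.0 to 128 CPM (log2 fold change 1.25) and the NADP-dependent malic enzyme Me1, which returns the malate made from it to pyruvate, rose from a mean of 40.8 to 89.0 CPM (log2 fold change 1.13; edgeR, adjusted p = 1.4e-10 and 8.1e-08). Slc25a11, which exchanges oxoglutarate for malate, was at 91.6 to 117 CPM (median 98.9) and at 80.6, 92.9, 91.9, 76.2 and 69.9 CPM. It fell by 0.29 on the log2 scale (edgeR, adjusted p = 0.0085), with shDRP1 replicates 2 and 3 inside the control range, and with library totals alone as the scaling it did not pass (log2 fold change -0.19, adjusted p = 0.089). The dicarboxylate carrier Slc25a10 ranged over 10.1 to 13.6 CPM (median 11.7) against 12.1, 11.6, 9.32, 9.23 and 11.3 CPM. Its log2 fold change was -0.15 (edgeR, adjusted p = 0.25; 95% interval -0.36 to 0.07). The ratio of Slc25a10 to Slc25a11 was the only one of the 10 tested whose difference did not pass, at 0.15 (exact permutation test, adjusted p = 0.327).

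Of the 7 amino acid carriers, 5 were higher and 1 was lower (median 0.61 on the log2 scale), beside 33.9% higher and 33.3% lower of all genes tested. Of the 5, Slc25a13 and Slc25a22 had too few shRandom counts for the low-count filter and were tested only through the shDRP1 libraries. The counts of the other substrate groups, of 1 to 9 members each, stand beside the same shares, and none was tested against them. The aspartate/glutamate carriers, which drive the malate-aspartate shuttle and are activated by calcium, both rose but by different amounts. Slc25a12 (aralar, the isoform of muscle and brain) ranged over 57.8 to 61.3 CPM (median 59.5) and stood at 62.8, 63.5, 71.0, 64.3 and 67.0 CPM. All shDRP1 libraries were above the control range, by a small margin, and the log2 fold change was 0.15 (SE 0.05; edgeR, adjusted p = 0.025); it did not pass with the replicate number as a block (adjusted p = 0.12) or without shRandom replicate 3 or 5 or shDRP1 replicate 3 (0.058 to 0.071). Slc25a13 (citrin, the liver isoform) was barely detected in shRandom libraries, at 0.0902 to 0.955 CPM (median 0.530), and stood at 3.54, 2.86, 1.65, 2.40 and 3.08 CPM in the knockdown. The groups did not overlap and its log2 fold change was 2.26 (SE 0.37; edgeR, adjusted p = 7.4e-05), on a summed count of 294. Aralar counts exceeded citrin counts 125-fold in shRandom and 24.8-fold in shDRP1 libraries, a difference of -2.34 in the log2 ratio (exact permutation test, adjusted p = 0.00619), and aralar gave more tags than citrin in every library. Of 4 enzymes of the same shuttle, 3 fell and none passed as higher. The mitochondrial aspartate aminotransferase Got2 fell from a mean of 326 to 113 CPM (-1.53 on the log2 scale), its cytosolic partner Got1 from a mean of 119 to 59.4 CPM (-1.01) and malate dehydrogenase Mdh2 from a mean of 579 to 394 CPM (-0.56; edgeR, adjusted p = 4.1e-10, 1e-06 and 6.4e-06), while Mdh1 had a log2 fold change of 0.18 (edgeR, adjusted p = 0.099).

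**Figure D3:**
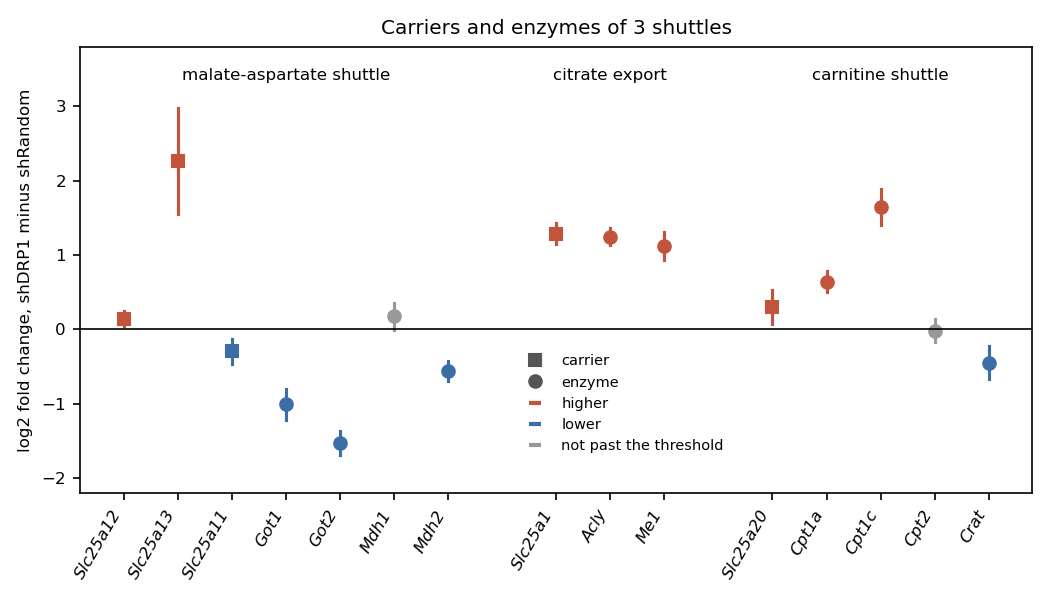
Log2 fold change (edgeR) of carriers (squares) and enzymes (circles) of the malate-aspartate shuttle, citrate export and the carnitine shuttle, with 95% intervals. The citrate carrier Slc25a1, Acly and Me1 lie at 1.29, 1.25 and 1.13, whereas Got1 and Got2 lie at -1.01 and -1.53 beside Slc25a12 at 0.15.

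Slc25a29, which carries basic amino acids such as arginine and lysine, showed the largest fall of the family. It was at 13.5 to 17.5 CPM (median 15.1) in shRandom libraries and at 2.20, 3.48, 2.42, 3.01 and 3.08 CPM in shDRP1 libraries. The groups were far apart and 18.5% of the control mean remained, a log2 fold change of -2.44 (SE 0.13; edgeR, adjusted p = 3.1e-10). It lies at chr12:108825873-108835883 on the minus strand, 163 bases from the GENCODE start of Slc25a47 on the plus strand. The RefSeq start of Slc25a47, a member whose substrate was not assigned here, is farther away, after the window chr12:108850879-108851128. Slc25a47 fell as well, from a mean of 2.24 to 1.05 CPM (-1.11 on the log2 scale; edgeR, adjusted p = 0.00043), with no overlap. Of the 20 tested genes around Slc25a29, 10 before and 10 after its start, 11 fell and 1 rose. Of all genes tested, 33.3% were lower and 33.9% higher. The window of Slc25a47 spans nearly the same stretch and gave the same counts, so it is not a separate count. Each of the 2 counts includes the other member.

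Slc25a44, which brings branched-chain amino acids into mitochondria, varied little within either group. It ranged over 44.2 to 46.1 CPM (median 45.4) and stood at 78.5, 75.9, 81.5, 79.8 and 77.1 CPM. The gap between groups was many times the spread within them, at 0.79 (SE 0.05; edgeR, adjusted p = 2.2e-09) on the log2 scale. Slc25a38, which imports glycine for heme synthesis, was at 4.42 to 7.51 CPM (median 6.40) and at 8.70, 10.2, 10.8, 8.99 and 8.14 CPM. It rose without overlap (log2 fold change 0.61; edgeR, adjusted p = 0.0014). The glutamate carrier Slc25a22 was at 0.111 to 1.40 CPM (median 0.532) and at 1.97, 5.88, 2.83, 1.18 and 0.814 CPM. Its groups overlapped and the knockdown value was led by shDRP1 replicate 2; the log2 fold change was 2.05 (SE 0.55; edgeR, adjusted p = 0.0051) with that library and 1.52 (adjusted p = 0.012) without it. Slc25a22, like Slc25a13, passed the filter on low counts only through the shDRP1 libraries. The ornithine carrier Slc25a15 had means of 8.43 and 9.73 CPM and did not pass (edgeR, adjusted p = 0.12; 95% interval -0.02 to 0.42).

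Slc25a20, the carnitine/acylcarnitine carrier of fatty acid oxidation, was at 15.9 to 21.9 CPM (median 17.6) and at 19.5, 24.1, 25.5, 26.2 and 18 CPM. Its groups overlapped, and its log2 fold change of 0.31 (SE 0.12; edgeR, adjusted p = 0.03) was lost with the replicate block (adjusted p = 0.12) and without any of 7 libraries (0.056 to 0.084). It has sequence kinship with Slc25a29, and their ratio moved furthest of the 10, from 1.19 to 7.93 as a geometric mean (difference 2.74 on the log2 scale; exact permutation test, adjusted p = 0.0054). Around the carrier, the outer membrane palmitoyltransferase Cpt1a rose from a mean of 26.5 to 41.3 CPM (edgeR, adjusted p = 2.2e-06). Its relative Cpt1c, listed with it by name, rose from a mean of 3.78 to 11.8 CPM (edgeR, adjusted p = 1.9e-08). No part in this shuttle is claimed for Cpt1c. Carnitine acetyltransferase Crat fell from a mean of 24.5 to 17.9 CPM (edgeR, adjusted p = 0.0028) and Cpt2 had a log2 fold change of -0.01 (edgeR, adjusted p = 0.87).

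In the glutathione pair and in the iron pair, the more abundant carrier fell and the other did not pass. Slc25a39, which imports glutathione and was the third most abundant member in both groups, ranged over 259 to 354 CPM (median 337) in shRandom libraries. Its levels were 186, 174, 193, 200.1 and 204 CPM in shDRP1 replicates 1 to 5. No libraries overlapped and the log2 fold change was -0.76 (SE 0.08; edgeR, adjusted p = 1.4e-06). Its paralogue Slc25a40 was at 2.73 to 5.14 CPM (median 3.66) and 4, 5.34, 5.05, 5.04 and 3.61 CPM. That gene did not fall in step: its log2 fold change was 0.30 (edgeR, adjusted p = 0.13), and the log2 ratio of Slc25a39 to Slc25a40 differed by -1.07 (exact permutation test, adjusted p = 0.00619). Slc25a37, mitoferrin-1, which delivers iron for heme and iron-sulfur clusters, ranged over 147 to 196 CPM (median 154) and fell to 60.1, 48.2, 68.7, 71.5 and 72.7 CPM. With a log2 fold change of -1.32 (SE 0.11; edgeR, adjusted p = 7.1e-08) it dropped from the fourth to the 12th place among the members. Slc25a28, mitoferrin-2, stood at 5.42 to 8.12 CPM (median 7.69) and at 7.95, 11.6, 9.53, 6.08 and 6.57 CPM. It overlapped between groups (log2 fold change 0.19; edgeR, adjusted p = 0.33), and mitoferrin-1 counts exceeded mitoferrin-2 counts 22.1-fold in shRandom and 7.81-fold in shDRP1 libraries (difference -1.50 in the log2 ratio; exact permutation test, adjusted p = 0.0054).

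Cofactor and nucleotide carriers split evenly, with 2 higher, 2 lower and 4 not past the threshold of 8 tested. Slc25a17, the carrier of peroxisomes for coenzyme A and related nucleotides, ranged over 37.0 to 47.0 CPM (median 42.8) in shRandom libraries. It stood at 83.9, 99.2, 94.6, 85.6 and 89.2 CPM in the knockdown. Its level rose 2.13-fold without overlap with a log2 fold change of 1.09 (SE 0.07; edgeR, adjusted p = 4.2e-09). Slc25a32, which carries folate and FAD, rose from a mean of 2.87 to 4.86 CPM (0.76 on the log2 scale; edgeR, adjusted p = 0.0029). The pyrimidine nucleotide carriers diverged. Slc25a33 was at 9.72 to 13.9 CPM (median 11.6) and at 5.34, 6.26, 5.56, 6.03 and 5.99 CPM, and fell to 49.2% of the control mean with a log2 fold change of -1.03 (SE 0.11; edgeR, adjusted p = 1e-06). Slc25a36 was at 28.5 to 37.9 CPM (median 32.0) and at 32.1, 31.9, 34.8, 32.5 and 26.8 CPM. Its groups overlapped (log2 fold change -0.04; edgeR, adjusted p = 0.71), and the log2 ratio of Slc25a33 to Slc25a36 differed by -0.97 (exact permutation test, adjusted p = 0.0054).

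The coenzyme A carriers were low. Slc25a16 ranged over 4.84 to 9.05 CPM (median 7.34) and stood at 5.45, 5.26, 4.22, 4.47 and 7.16 CPM. Only shDRP1 replicates 3 and 4 lay below the control range, and the fall of 0.46 on the log2 scale (edgeR, adjusted p = 0.027) was lost under 7 of 20 alternatives (adjusted p = 0.06 to 0.099). Slc25a42 did not pass the filter on low counts, at 0.103 to 0.382 CPM (median 0.213) and 0.812, 2.09, 0.721, 0.424 and 0.291 CPM, with the highest value in shDRP1 replicate 2. The log2 ratio of Slc25a16 to Slc25a42 differed by -2.05 (exact permutation test, adjusted p = 0.0135), on few counts of Slc25a42. Slc25a51, the NAD carrier and the sixth most abundant member in shRandom libraries, had means of 105.5 and 110.4 CPM, and Slc25a26 for S-adenosylmethionine 2.16 and 2.40 CPM. Neither passed (edgeR, adjusted p = 0.38 and 0.67). Lrig1 runs over the 3′ end of Slc25a26 on the opposite strand, so reads of that end cannot be assigned with certainty.

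**Figure D4:**
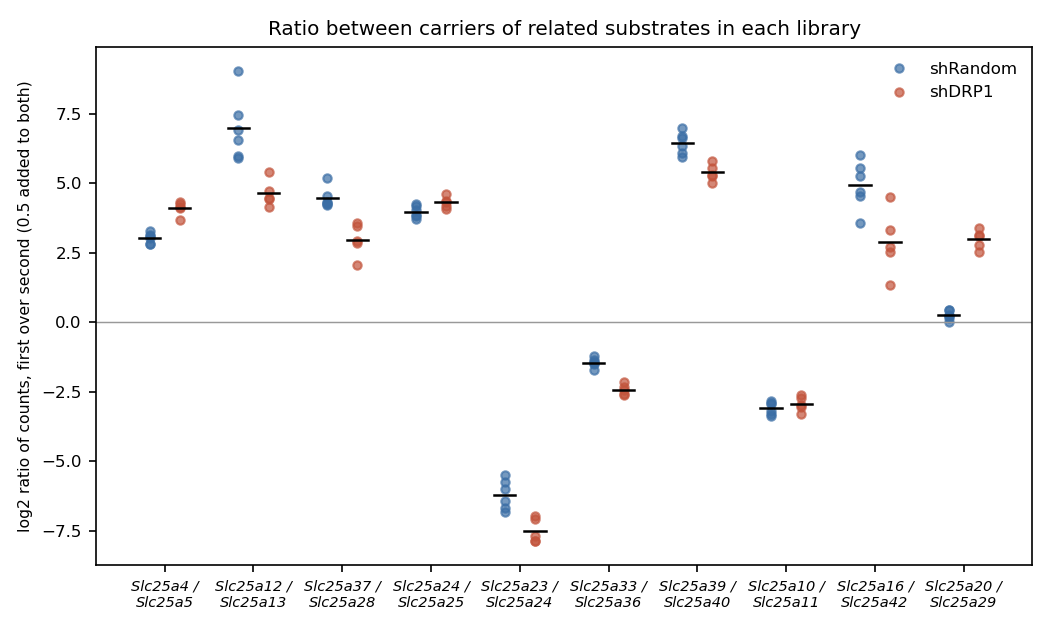
Log2 ratio of raw counts between 2 carriers of related substrates or close sequence in each shRandom (blue) and shDRP1 (red) library, with 0.5 added to both counts; black bars are group means. For Slc25a4/Slc25a5, Slc25a37/Slc25a28 and Slc25a33/Slc25a36 no shDRP1 library falls in the shRandom range, while Slc25a10/Slc25a11 overlaps.

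The scaling of libraries does not enter these ratios, and 9 of 10 differed between groups with Benjamini-Hochberg adjustment over the 10 (two-sided exact permutation test, smallest possible p = 0.00216). A further 4 listed pairs could not be formed because a partner was not analysed here. All 5 shDRP1 libraries lay outside the shRandom range for 7 of the ratios. Ratios of other gene pairs were not formed, so whether these counts are particular to carriers was not tested. Of all genes tested, 67.1% were called and 48.9% did not overlap between groups. The differences of largest size were 2.74 for Slc25a20/Slc25a29 and -2.34 for Slc25a12/Slc25a13, and the smallest of the 9 was 0.34 for Slc25a24/Slc25a25.

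Of the uncoupling protein-like carriers, Slc25a14 rose from a mean of 11.2 to 13.1 CPM (log2 fold change 0.23; edgeR, adjusted p = 0.027), with overlap, and lost its call under 7 of 20 alternatives (adjusted p = 0.05 to 0.11). Slc25a27 had means of 2.19 and 1.72 CPM (edgeR, adjusted p = 0.21). Slc25a46, an outer membrane member of the family that takes part in mitochondrial dynamics and lipid transfer, is the member nearest in function to Drp1. It had means of 74.3 ± 3.98 CPM (SD, n = 6) and 68.7 ± 3.74 CPM (SD, n = 5), and its log2 fold change of -0.11 did not pass (edgeR, adjusted p = 0.11; 95% interval -0.23 to 0.00), although it passed without shDRP1 replicate 3 (-0.14, adjusted p = 0.046).

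Among the 5 carriers whose substrate was not assigned here, 3 rose and 1, Slc25a47, fell. Slc25a45 was at 5.22 to 7.85 CPM (median 6.46) and at 16.5, 12.7, 14.6, 14.1 and 14.5 CPM. It rose 2.26-fold without overlap, with a log2 fold change of 1.17 (SE 0.11; edgeR, adjusted p = 3.8e-07). Slc25a53 rose from a mean of 2.99 to 4.51 CPM and Slc25a35 rose from a mean of 2.09 to 2.97 CPM (edgeR, adjusted p = 0.0029 and 0.01). The 3′ end of Slc25a35 is covered by Rangrf on the opposite strand, so part of its count may belong to that gene. Slc25a43 had means of 0.622 and 0.600 CPM and did not pass (edgeR, adjusted p = 0.88).

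Genes of the same fold under other symbols, and genes that work beside the carriers, moved in both directions too. The former are not in the member counts above, where 21.6% were lower. The counts below are to be read against the 67.1% of all genes that were called, 33.9% higher and 33.3% lower. Of the measured genes of the same fold that bear other symbols, the 3 tested fell: Ucp2 from a mean of 43.0 to 17.5 CPM, and the outer membrane proteins Mtch1 from a mean of 742 to 583 CPM and Mtch2 from a mean of 255 to 226 CPM (edgeR, adjusted p = 1.7e-09, 0.00052 and 0.012). Of 12 inner membrane transporters of other folds, 6 rose and 3 fell, with a median log2 fold change of 0.15. All 5 sideroflexins were among those that rose, led by the serine transporter Sfxn1, from a mean of 114 to 293 CPM (1.36 on the log2 scale), and Sfxn5, from a mean of 1.75 to 6.34 CPM (1.86; edgeR, adjusted p = 1.3e-11 and 1e-06). The pyruvate carrier subunit Mpc1 fell from a mean of 10.1 to 7.57 CPM (edgeR, adjusted p = 0.011) and Mpc2 had a log2 fold change of -0.07 (edgeR, adjusted p = 0.43). Of 13 genes of the import route, 6 fell and 3 rose (median -0.28), so that 69.2% were called. The chaperone Timm10 fell from a mean of 48.4 to 21.7 CPM and its relative Timm10b rose from a mean of 64.6 to 86.9 CPM (edgeR, adjusted p = 4.3e-09 and 6.3e-05), and the channel Timm22 fell from a mean of 70.6 to 53.1 CPM (edgeR, adjusted p = 0.0004). Of 13 tested genes listed as enzymes of the shuttles, 6 rose, Cpt1c among them, and 4 fell (median 0.18). Ornithine aminotransferase Oat rose from a mean of 41.0 to 76.5 CPM (edgeR, adjusted p = 1.7e-07).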

How the data were processed

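Total RNA of 11 C2C12 libraries was counted by QuantSeq. The authors deposited raw integer counts for each gene, made after alignment in BlueBee software, per the labels' design text. DESeq2 (1.22.2) and the builds GRCm38 and mm10 appear in the submitters' processing notes. Aligner, counting program and strand setting: not given in the sources used here. A second deposited table of scaled counts was not used. Symbols were matched for 15080 of 15113 identifiers, and positions came from GENCODE M21 (GRCm38). 

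The test was edgeR 4.0.16 under R 4.3.3 (filterByExpr by group, TMM, robust quasi-likelihood fit, Benjamini-Hochberg adjustment over 13025 genes, threshold 0.05). Standard errors are the log2 fold change divided by the root of F, and 95% intervals are 1.96 standard errors either way. Ratios of carriers were tested by exact permutation of libraries, with 0.5 added to each count. The steps were tested on simulated data. Replicates were compared for duplicates: chi-square per degree of freedom was at least 5.03 within groups.

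Members, substrate groups, pairs and lists were chosen with earlier results of these data known. Values in each shDRP1 library, beside the range and median of the shRandom libraries, are given for 3 sets. These are members of the pairs, the 6 called members of at least 5 CPM that rose most and the 6 that fell most, and the 5 most abundant. Of each neighbouring list, the 2 genes with the smallest adjusted p are named. The library values of Slc25a22, other genes named from the lists and the 3 shuttle groupings were chosen after their values were seen. 1 member enters the counts but is not reported here by name. The alternatives were 3 other scalings, 2 other filters, DESeq2 version 1.42.0, limma-voom (limma version 3.58.1), a replicate block, stricter thresholds and leaving out libraries.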

Additional observations from a re-analysis of the deposited data

Results flagged for a closer look

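In 4 of 76 sets of library values (38 members in 2 groups), 1 library stood apart from the rest of its group by Dixon's test at the 95% level; chance flags about 1 in 20 sets. Slc25a42 was at 2.09 CPM in shDRP1 replicate 2 and at 0.291 to 0.812 CPM in the other shDRP1 libraries. Slc25a37 was at 195.5 CPM in shRandom replicate 4 and at 147 to 164.4 CPM in the other shRandom libraries. Slc25a46 was at 81.9 CPM in the same library and at 71.0 to 74.8 CPM in the others. Slc25a53 was at 5.15 CPM in shDRP1 replicate 3 and at 4.25 to 4.47 CPM in the others.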

How the results depend on the processing

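Over 20 alternative fits and 2 stricter rules for calls or members, the count of higher members ran from 10 to 18 and that of lower members from 6 to 9, each within 1.5 times the reported 15 and 8. Leaving out 1 library gave 12 to 15 higher and 7 to 9 lower members. Without shRandom replicate 1 and shDRP1 replicate 2 together the counts were 15 and 8. Library totals alone, which moved the median of all genes by 0.0995 on the log2 scale, gave 18 and 6. Of 23 called members, 18 passed in each alternative that tested them and none changed sign; of 14 members not past the threshold, 6 passed somewhere and 5 changed sign. Those 5 had reported log2 fold changes of -0.10 to 0.14. With library totals alone the log2 fold changes were 0.0040 for Slc25a3, 0.057 for Slc25a25, 0.062 for Slc25a36 and 0.036 for Slc25a43. With upper-quartile factors they were 0.042 for Slc25a25, 0.047 for Slc25a36 and 0.023 for Slc25a43. Leaving out 1 library gave -0.096 to 0.0074 for Slc25a25, -0.051 to 0.33 for Slc25a26, -0.074 to 0.018 for Slc25a36 and -0.31 to 0.20 for Slc25a43. Slc25a26 was at -0.022 without the 2 named libraries together.

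The correlation of deviations between same-numbered libraries ran from -0.28 to 0.48. Differently numbered libraries were not compared, so these values cannot decide whether replicate numbers pair the libraries. With the replicate block in edgeR 12 members were higher and 7 lower, and Slc25a43 was at 0.076. For the ratios a sign-flip test of the 5 same-numbered differences, the paired form, passed 0 of 10 pairs, adjusted or not, since its smallest two-sided p is 0.0625. Leaving out 1 library left 8 or 9 pairs past the threshold. The group difference in the family's share of counts was 0.0478 percentage points and 0.0406 to 0.0561 with 1 library left out. Standard errors reached 0.55 on the log2 scale for members below a mean of 3 CPM and 0.20 for the others, so small changes were less detectable in the former.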

Other observations

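The members lay on 18 chromosomes, with 5 on chromosome 11 and 4 on the X chromosome. Slc25a5 and Slc25a43 lie 18449 bases apart on the X chromosome, and neither passed the threshold. For all 38 members, 20 tested genes were counted, the 10 before and the 10 after by start position. These windows could be wide and uneven, as for Slc25a5, from 21079174 to 37192467 on the X chromosome. Between 2 and 12 of the 20 fell and between 1 and 11 rose, and the median log2 fold change of a window ran from -0.52 near Slc25a16 to 0.37, where 33.3% of all genes tested were lower and 33.9% higher. A window and its member could differ in direction: near Slc25a38, which rose, 12 genes fell and 4 rose, and near Slc25a23, which fell, 2 fell and 10 rose. Slc25a38 and Slc25a23 were named after the values were seen, and the counts are given with no test.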
